A study of Mus musculus with 7 samples.

Results

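Genes that carried a peak of 5-methylcytosine (5mC) were compared between day 0 and day 10 of ATDC5 differentiation. ATDC5 is a mouse cell line derived from a teratoma that serves as a model of chondroprogenitors and is driven towards chondrocytes by insulin, transferrin and selenite. A gene was counted for a day when the authors had written its symbol beside at least 1 peak of that day's list, and by this rule 123 genes belonged to day 0 and 1348 to day 10, together 1453 of the 3307 genes in any peak list of the series. Each 5mC list came from 1 sample of genomic DNA from progenitors (day 0) or from cells in differentiation medium (day 10), with no genotype or other agent named for either, so no value has a replicate spread. Methylated DNA was enriched by its affinity to a complex of methyl-CpG binding proteins and sequenced, and the lists give regions of at least 3-fold enrichment without a score or a read count per peak. The stage of the cells could not be checked against marker genes, since no expression was measured in these samples. Days follow the sample labels. The study's own text names both days compared here, although its full set of days differs from that of the labels. The control that each list was set against is not named, so a list may hold differences between samples and not every methylated site. All tests below therefore compare 2 lists, and the intervals cover counting error over peaks or genes alone.

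In mammals 5mC lies mostly at CpG dinucleotides, where DNMT enzymes write it and TET enzymes oxidise it to 5-hydroxymethylcytosine (5hmC). Bodies of transcribed genes, exons among them, and repeat sequence are usually methylated, while CpG islands at the start of active genes are usually not. Methyl-CpG capture favours fragments that hold several methylated CpG together, so the CpG content of a peak bears on how readily it is recovered.

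Before the counts, stretches of 200 bp around the midpoint of several peaks are given as examples. They were picked for their CpG content or for the peaks of their gene, so they do not stand for the lists. Every CG is in capitals, written 5′ to 3′ on the plus strand of GRCm38 as read from the RefSeq genome sequence. Lrrc8b, a subunit of the volume-regulated anion channel, is shown at both days because it had the widest gap in CpG content of the genes in both lists, and Zfp791, a zinc finger gene with the closest pair of peaks, is shown at its day 10 peak.
Zfp791, day 10, coding exon, chr8:85110220-85110419: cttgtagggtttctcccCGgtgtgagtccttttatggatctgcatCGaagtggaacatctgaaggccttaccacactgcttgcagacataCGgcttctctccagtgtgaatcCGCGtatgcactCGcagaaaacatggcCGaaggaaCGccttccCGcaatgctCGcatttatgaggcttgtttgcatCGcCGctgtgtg
Lrrc8b, day 0, intron, chr5:105446436-105446635: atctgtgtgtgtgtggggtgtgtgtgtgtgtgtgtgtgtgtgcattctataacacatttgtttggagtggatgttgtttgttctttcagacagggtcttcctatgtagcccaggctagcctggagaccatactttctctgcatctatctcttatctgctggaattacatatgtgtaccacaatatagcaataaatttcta
Lrrc8b, day 10, coding exon, chr5:105480687-105480886: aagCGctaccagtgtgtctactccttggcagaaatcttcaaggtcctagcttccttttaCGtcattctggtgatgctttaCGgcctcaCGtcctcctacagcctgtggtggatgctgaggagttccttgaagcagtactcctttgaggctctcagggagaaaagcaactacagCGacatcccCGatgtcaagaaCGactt
The day 0 stretch of Lrrc8b held 0 CpG and opens with a run of alternating T and G. The day 10 stretches held 12 CpG at Zfp791 and 7 at Lrrc8b, and all 200 of their bases were coding.

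Day 10 stretches with several CpG were also found at the genes with the most peaks. Ttn encodes the sarcomeric protein titin, Fryl a furry-like protein and Fat1 a giant cadherin, and each is shown at its day 10 peak with the highest CpG density.
Ttn, day 10, coding exon, chr2:76710111-76710310: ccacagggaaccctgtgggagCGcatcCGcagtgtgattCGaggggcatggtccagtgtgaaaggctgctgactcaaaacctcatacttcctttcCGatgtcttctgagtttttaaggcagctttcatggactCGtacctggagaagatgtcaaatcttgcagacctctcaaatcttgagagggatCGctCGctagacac
Fryl, day 10, peak over a coding exon, chr5:73093351-73093550: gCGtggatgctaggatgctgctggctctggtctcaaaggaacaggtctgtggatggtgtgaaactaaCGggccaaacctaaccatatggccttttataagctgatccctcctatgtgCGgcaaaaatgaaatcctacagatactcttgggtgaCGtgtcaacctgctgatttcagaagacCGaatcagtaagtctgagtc
Fat1, day 10, coding exon, chr8:45023535-45023734: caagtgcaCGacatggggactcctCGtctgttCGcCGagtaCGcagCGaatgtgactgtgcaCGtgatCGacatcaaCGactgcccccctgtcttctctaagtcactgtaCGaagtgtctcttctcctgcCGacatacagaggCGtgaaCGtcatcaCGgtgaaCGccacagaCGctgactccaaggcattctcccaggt
The 3 day 10 stretches held 7, 5 and 16 CpG and no base marked as repeat.

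Gene-linked peaks were more frequent at day 10. The day 0 list had 326 peaks, of which 124 carried a gene symbol (38%, 95% Wilson interval 32.9 to 43.4). At day 10, 1665 of 2401 peaks did (69.3%, 67.5 to 71.2). The difference was 31.3 percentage points (two-sided Fisher's exact test, p = 2.10e-27). There were 18 genes in both lists, which is 14.6% of the day 0 genes and 1.34% of the day 10 genes. The day 0 list alone held 105 genes and the day 10 list alone 1330. Of all 21774 protein-coding genes, 0.496% had a peak at day 0 and 5.91% at day 10. The 14.6% lies above 5.91%, but the shared genes were long (median 254 kb), and length was not separated from this share. Noncoding genes took a different share of the lists, with 14 long noncoding RNA genes among 123 at day 0 (11.4%) and 48 among 1348 at day 10 (3.56%), a difference that was not tested.

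Genes with several peaks were found almost entirely at day 10. At day 0, 122 genes had a single peak and 1 gene, Gm13152, had 2 peaks (0.813%, 0.144 to 4.46). At day 10, 211 genes had 2 or more peaks (15.7%, 13.8 to 17.7), a difference of 14.8 points (two-sided Fisher's exact test, p = 6.66e-08). Among these, 147 genes had 2 peaks, 43 had 3 and 21 had at least 4, and together they held 31.7% of the gene-linked peaks. Peaks of one gene are not independent of each other, and with more peaks in a list more genes are hit again, so that list size and peaks per gene cannot be told apart here.

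The position of peaks within genes differed between the lists. Each peak was placed against the RefSeq transcripts of its gene, in the order upstream (5000 bp before a start), 5′ UTR exon, coding exon, 3′ UTR exon, noncoding exon, intron and beyond the gene, which could be done for 122 day 0 and 1658 day 10 peaks. Coding exons were the first feature for 3 day 0 peaks (2.46%, 0.84 to 6.98) and 721 day 10 peaks (43.5%, 41.1 to 45.9), a difference of 41 points (Fisher's exact test, adjusted p = 1.56e-23). Introns held 97 day 0 peaks (79.5%, 71.5 to 85.7) and 648 day 10 peaks (39.1%, 36.8 to 41.5), a change of -40.4 points from day 0 (Fisher's exact test, adjusted p = 6.01e-18). 5′ UTR exons held 0 day 0 peaks (interval up to 3.05%) and 65 day 10 peaks (3.92%, 3.09 to 4.97; Fisher's exact test, adjusted p = 0.0472). Upstream sequence held 15 peaks at day 0 (12.3%) and 118 at day 10 (7.12%), which did not pass after adjustment (Fisher's exact test, adjusted p = 0.0831). This difference of -5.18 points was -6.29 points by midpoint (adjusted p = 0.017, Fisher's exact test) and turned to 1.55 points with an upstream window of 2000 bp (adjusted p = 0.765), where sequence beyond the gene differed by -6.69 points (adjusted p = 0.0206). By the 5000 bp window the threshold was not passed either for 3′ UTR exons, noncoding exons or sequence beyond the gene (adjusted p of 0.598 to 1).

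**Figure D1:**
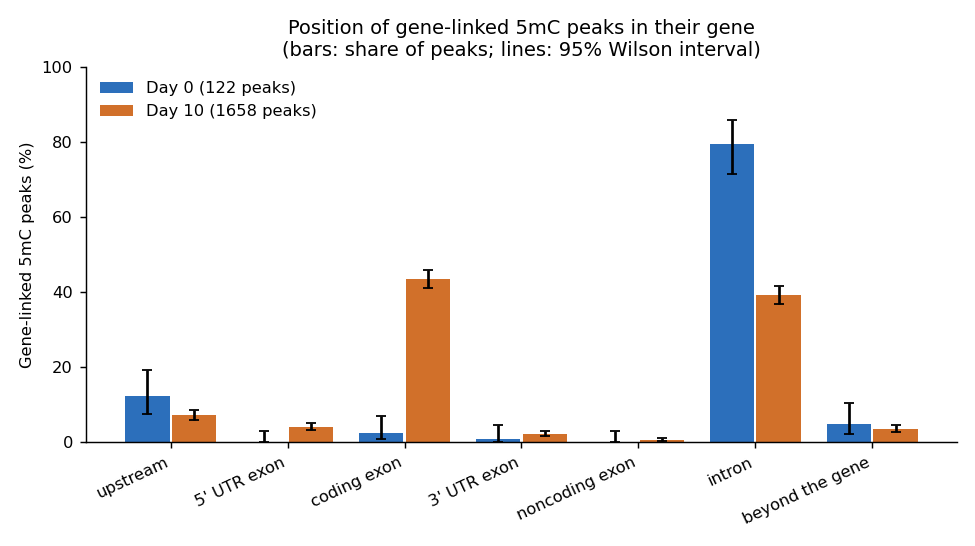
Share of gene-linked 5mC peaks (y axis, %) by position in the gene (x axis) for day 0 (blue, 122 peaks) and day 10 (orange, 1658 peaks), with lines for 95% Wilson intervals. Coding exons stand at 2.46% against 43.5% and introns at 79.5% against 39.1%, and the intervals of the other positions lie close together or overlap.

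The coding exon difference was smaller by the peak's midpoint, 23.8 points (adjusted p = 1.48e-13, Fisher's exact test). The median width was 732 bp for day 0 and 1016 bp for day 10 peaks, and its part in the positions was not tested. Among peaks with under 50% of bases marked as repeat it was 39.9 points, from 2 of 40 day 0 peaks (5%) and 718 of 1600 day 10 peaks (44.9%; Fisher's exact test, adjusted p = 3.00e-07). The 5′ UTR difference was 0.603 points by midpoint (adjusted p = 1, Fisher's exact test). By the longest transcript alone it was 2.96 points and did not pass the threshold (adjusted p = 0.0866, Fisher's exact test). Among peaks poor in repeats it was 4.06 points, from 0 of 40 day 0 and 65 of 1600 day 10 peaks. There it did not pass either (adjusted p = 0.706, Fisher's exact test). For scale, 3.59% of the bases in protein-coding gene bodies are coding by these transcripts. That is a share of bases, whereas a whole peak counts once it touches a coding exon by 1 bp. Closer to it are the midpoint shares, 0 of 122 day 0 peaks and 394 of 1658 day 10 peaks (23.8%). The 5hmC lists, placed by overlap of the whole peak, had coding exons as the first feature for 16.1% of peaks at day 5 and 5.08% at day 10.

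Counted without the order of features, 805 day 10 peaks overlapped a coding exon (48.6%), in 716 genes. Of these, 572 (71.1%) overlapped coding sequence in inner exons alone, in neither the first nor the last exon of the transcript. Exactly 1 coding exon was overlapped by 642 of the peaks, and a whole exon lay inside 504 of them (62.6%). Exon numbers here and below run over all exons of a transcript, including those without coding sequence. The 3 day 0 peaks over a coding exon, named here after their values were seen, were at Itgb4, an integrin beta subunit (exon 27 of 39), at Npl, an N-acetylneuraminate lyase (exon 7 of 12), and at A630001G21Rik (exon 6 of 6), and no day 0 peak held a whole exon.

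Along the gene, day 10 peaks lay further from the start. The median midpoint was at 60.4% of the gene's length for the 1511 day 10 peaks inside a gene and at 41% for the 104 at day 0. The final 10% of the gene's length held 16.9% of day 10 peaks (15.1 to 18.8) and 4.81% of day 0 peaks (2.07 to 10.8), while the first 10% held 7.81% (6.56 to 9.27) and 9.62% (5.31 to 16.8). These shares were not tested. The median distance to the nearest start was 20.5 kb at day 0 and 25.4 kb at day 10. A start lay inside 1 day 0 peak (0.82%, 0.145 to 4.5) and 41 day 10 peaks (2.47%, 1.83 to 3.34).

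The sequence content of the gene-linked peaks was taken over all of them, since the printed stretches were picked for their peaks or their CpG content. Day 0 peaks had a median of 0.579 CpG per 100 bp and day 10 peaks 2.49. Of 124 day 0 peaks 1, at Wasf3, exceeded the day 10 median, and 25 of 1665 day 10 peaks (1.5%) were below the day 0 median. Repeat-marked bases made up a median of 59.7% of a day 0 peak and 11.9% of a day 10 peak, and at least 50% of the bases in 83 day 0 peaks (66.9%) and 60 day 10 peaks (3.6%). Within the day 10 list, median CpG per 100 bp was highest in 5′ UTR exons (3.05), followed by noncoding exons (2.84), coding exons (2.78), upstream sequence (2.6), 3′ UTR exons (2.33), introns (2.12) and sequence beyond the gene (1.97). Intronic day 0 peaks had 0.557, so the days differed within introns too. How far CpG and repeat content move the capture or the peak calling was not tested.

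**Figure D2:**
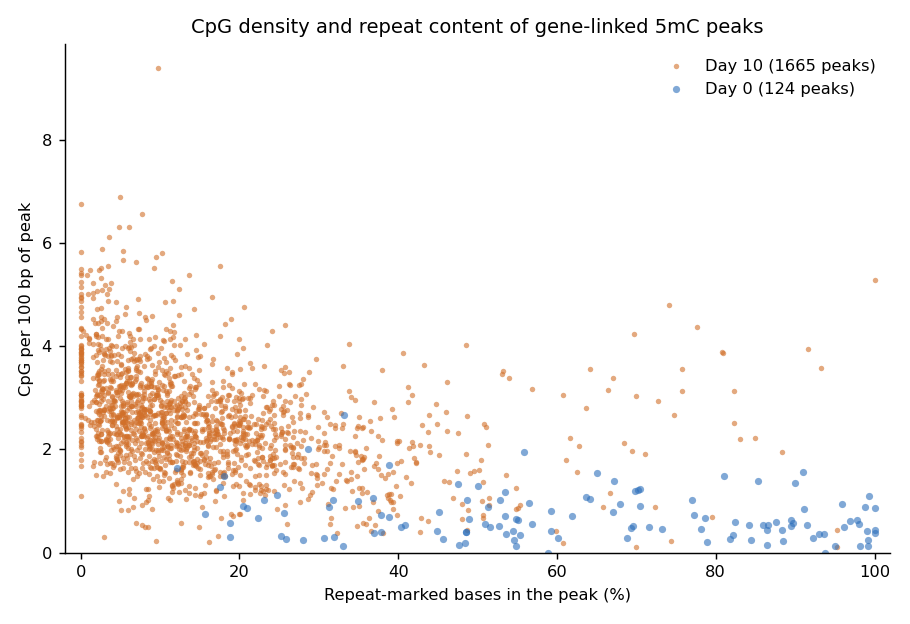
CpG per 100 bp (y axis) against the share of repeat-marked bases (x axis, %) for each gene-linked 5mC peak, 124 at day 0 (blue) and 1665 at day 10 (orange). Day 0 peaks lie low across the width of the plot (median 0.579), while most day 10 peaks lie at the left and higher (median 2.49).

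The 18 genes in both lists had 18 day 0 and 25 day 10 peaks, never at the same place. The nearest pair of peaks was 6.97 kb apart at Zfp791 and 150 kb apart at Reln, which encodes reelin, a secreted glycoprotein of the matrix known for guiding neurons, and the median was 49.5 kb. These genes were long, with a median of 254 kb and a range of 14.5 to 857 kb. The day 0 peak was intronic in 17 of them, and 79.5% of all 122 day 0 peaks that could be placed were intronic. The exception was Limk1, the kinase that phosphorylates cofilin, whose day 0 peak (chr5:134693848-134694294) lay past the 5000 bp upstream window. In 7 genes, Erc2, Hlcs, Limk1, Lrrc8b, Reln, Rnf214 and Zfp791, a day 10 peak lay over a coding exon. Of all 1658 placed day 10 peaks 48.6% overlapped one, which is a share of peaks and not of genes.

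In 15 of the 18 genes the day 0 peak had fewer CpG per 100 bp than every day 10 peak of that gene. The whole lists differed in the same direction (medians of 0.579 and 2.49), so this order is not particular to the shared genes. At Zfp791 the density was 0.513 in an intron and 4.13 in coding exon 5 of 5 (chr8:85109691-85110948). At Lrrc8b it was 0.368 in an intron and 4.67 over coding exon 4 of 5 (chr5:105480123-105481450). At Syne1, which encodes nesprin-1, a linker of nucleus and cytoskeleton, both peaks were intronic, with 0.135 at day 0 (chr10:5136000-5136740) and 3.86 at day 10 (chr10:5081197-5082309). At Reln it was 0.86 in an intron and 1.95 over exon 52 of 65, and at Erc2, a scaffold of the presynaptic active zone, 0.13 in an intron and 2.57 over exon 3 of 16.

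Timp2, an inhibitor of matrix metalloproteinases, had 0.427 CpG per 100 bp in its intronic day 0 peak (chr11:118318001-118318703) and 2.55 in its day 10 peak, which reached the 3′ UTR exon (chr11:118300852-118302182). Hlcs, which attaches biotin to carboxylases, had 0.532 at day 0, and 2.36 over exon 7 of 11 and 2.84 in an intron at day 10. Rbfox3, a neuronal splicing factor, had 3 day 10 peaks of 1.95, 2.73 and 3.74, all intronic, against 1.54 at day 0. Limk1 had 0.447 against 2.79 and Rnf214, a RING finger gene, 0.709 against 1.99.

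Tmem132c had 0.377 against 2.91 and 3.12, and Fam19a1, which encodes a small secreted protein, 0.547 against 1.58. The gap was narrow at Upf2, a factor of nonsense-mediated decay (1.22 and 1.48), and at Ano2, a calcium-activated chloride channel (0.301 and 0.39). The order was turned at Nup93, a nucleoporin (0.693 at day 0 and 0.118 at day 10), and at Wasf3, an actin regulator of the WAVE family (2.67 at day 0 against 1.38 and 2.23). At Ctnnd2, which encodes delta-catenin, the day 0 value of 0.858 lay between the day 10 values of 0.316 and 1.22.

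**Figure D3:**
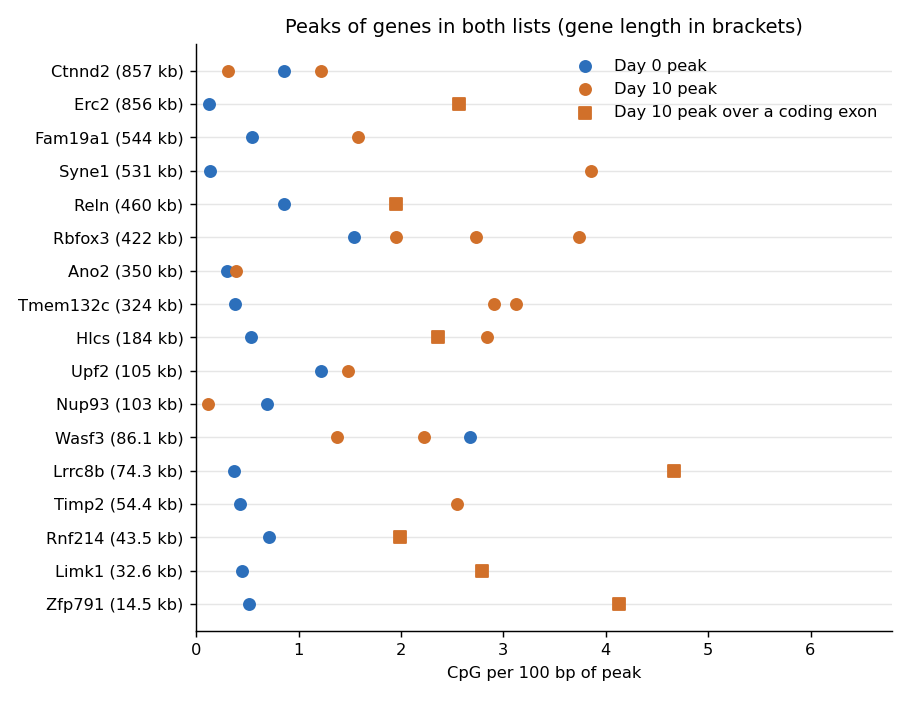
CpG per 100 bp (x axis) of each 5mC peak of the genes in both lists that are described (y axis, ordered by gene length), day 0 in blue and day 10 in orange, with squares for peaks whose first feature was a coding exon. The day 0 point lies left of every day 10 point of its gene except at Ctnnd2, Nup93 and Wasf3.

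Longer genes had a peak more often in either list. The share of protein-coding genes with a day 0 peak was 0.0243% under 10 kb, 0.284% at 10 to 30 kb, 0.862% at 30 to 100 kb, 1.22% at 100 to 300 kb and 4.55% above 300 kb. For day 10 the shares were 1.61%, 4.28%, 8.66%, 17.6% and 26.9%. The day 10 share was 66.5 times the day 0 share in the shortest class, where day 0 had 2 genes, and 5.92 times in the longest. The median gene length was 70.8 kb for genes in the day 0 list alone, 62.6 kb in the day 10 list alone, and 16.2 kb for all protein-coding genes. Between chromosomes, the genes with a day 10 peak ranged from 0 per 100 protein-coding genes on Y and 0.935 on X to 13.1 on chromosome 5.

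**Figure D4:**
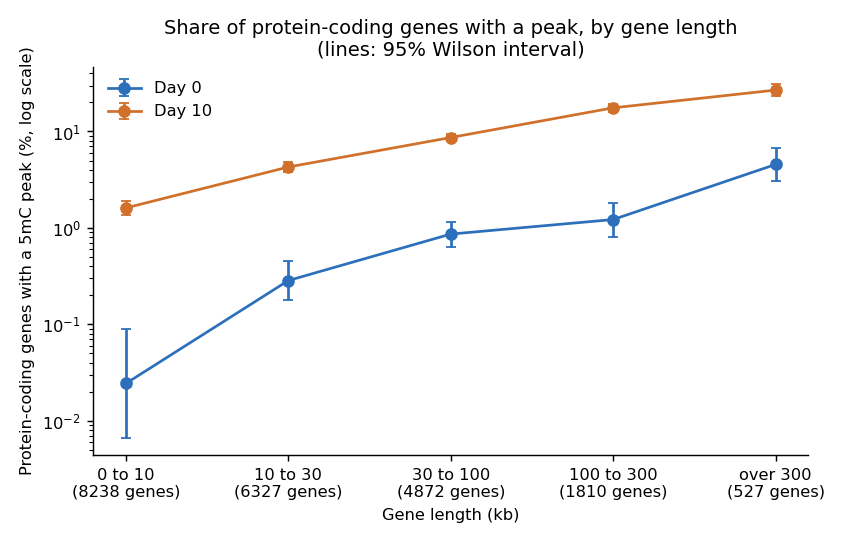
Share of protein-coding genes with a 5mC peak (y axis, %, log scale) by gene length (x axis, kb) at day 0 (blue) and day 10 (orange), with lines for 95% Wilson intervals. Both shares are higher in each longer class, from 0.0243% to 4.55% at day 0 and from 1.61% to 26.9% at day 10.

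The 10 genes with the most day 10 peaks had 5 to 9 peaks each. Ttn had 9 peaks, all with a coding exon as the first feature, of which a pair lay side by side in exon 186 of 192 (chr2:76709093-76711328 and chr2:76711386-76713251). Ttn CpG density ranged from 1.75 to 3.71 per 100 bp. Fryl had 8 peaks, 6 of them over coding exons between exon 27 and exon 61 of 63 and the others in introns. Fat1 had 6 peaks that all overlapped coding sequence. One of these held its start (chr8:44950020-44952797), a pair lay in exon 9 of 26, and the others covered exons 14 to 15, 18 and 26. None of these genes had a day 0 peak, and of all protein-coding genes of 100 to 300 kb, where they lie, 1.22% had one.

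The other 7 genes had peaks in introns, coding exons or both. Atrnl1, an attractin-like membrane protein, had 6 peaks, of which 5 were intronic. Pde4d, a cAMP phosphodiesterase, had 5 peaks in introns across a gene of 1302 kb. Slc39a11, a zinc transporter, had 4 peaks in introns and 1 over coding exon 5 of 8. Map2k6, which activates p38 kinases, had 3 peaks in introns, 1 upstream of a start and 1 with a 5′ UTR exon as the first feature. Cit, the citron kinase of cytokinesis, had 3 of 5 peaks over coding exons, and Dst, the cytolinker dystonin, had 5 peaks that all overlapped coding sequence. Lrmp, a membrane protein of lymphoid cells, had 5 peaks in 59.3 kb, which at 8.43 per 100 kb was the highest density of these 10 genes.

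At day 0 a single peak was the rule, so the genes listed first were those with the widest peaks. Gm13152, a zinc finger gene (now Zfp982), had 1 peak upstream of a start (chr4:147496615-147497444) and 1 beyond the gene, 104751 bp from the nearest start. It lies among similar zinc finger genes, so its peak assignment is uncertain. Next came the long noncoding RNA genes 4921509O07Rik (1186 bp of peak), 1600002D24Rik (939 bp) and 4930599N23Rik (910 bp), all intronic. Protein-coding genes among them were 2310008H04Rik (now Spidr, a DNA repair scaffold; 1019 bp), Ugt3a2 (a glycosyltransferase; 921 bp), Itgb4 (917 bp), Nudcd1 (902 bp), Rps6kc1 (a ribosomal S6 kinase relative; 902 bp) and Whsc2 (now Nelfa, a subunit of the negative elongation factor; 898 bp). CpG density was highest at Itgb4, 1.2 per 100 bp, and lowest at 1600002D24Rik, 0.213.

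CpG density near gene starts was read from the 5 peaks closest to a start in each list. The day 0 peaks closest to a start were at 2810049E08Rik, whose start lay inside the peak, and then at Mfap2, a microfibril protein of the matrix (405 bp away), Zfp791 (991 bp), Shmt1, a serine hydroxymethyltransferase (1205 bp), and Btbd9 (1353 bp). Their CpG densities were 0.403, 0.248, 0.513, 0.59 and 1.65 per 100 bp. At day 10 the widest peaks over a start were at Fat1 (4.39 CpG per 100 bp), 4933401H06Rik (2.39), Pcdhgc4, a clustered protocadherin (4.53), Dcc, a netrin receptor (3.8), and Slc38a4, an amino acid transporter (2.45). In each of these day 10 genes the density was above that of all 5 day 0 peaks. All gene-linked peaks differed in the same direction (medians of 0.579 at day 0 and 2.49 at day 10), so the gap is not particular to starts. The 2 sets also differ in kind, since only 1 of the day 0 peaks held a start.

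Genes were next grouped by function in 33 lists that together held 4313 protein-coding genes, of which 21 had a day 0 peak (0.487%) and 266 a day 10 peak (6.17%). Both shares were near those of all protein-coding genes (0.496% and 5.91%). At day 10, 25 lists were above 5.91%, 11 of them with an interval that lay above it, and 3 lists had an interval below it. Most lists above it had a median gene length over the 16.2 kb of all protein-coding genes, and length was not separated from function. At day 0, 19 lists had no member with a peak and the others had 1 to 4.

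Of the lists of cartilage genes and their regulators, RUNX factors and chondrocyte differentiation had intervals above the background at day 10, and SOX factors and collagens had intervals that spanned it. Of the 7 RUNX genes and partners, which control skeletal development, 3 had a day 10 peak (42.9%, 15.8 to 75). Their median length was 103 kb, and the 17.6% of all genes of 100 to 300 kb lies within this interval. Runx3 had it over coding exon 3 of 6 (3.47 CpG per 100 bp), Runx2 in an intron (1.7) and Cbfb, the shared partner subunit, in an intron (1.61). Of 51 genes of chondrocyte differentiation 8 had a day 10 peak (15.7%, 8.17 to 28) and 0 a day 0 peak (interval up to 7%), in genes with a median length of 24.1 kb. These were Sox5 (381 kb), Bmpr1b (332 kb), Runx2 (319 kb) and Col27a1 (120 kb). The others were Tet1 (82.8 kb), Runx3 (57.3 kb), Spp1 (5.94 kb) and Cst6 (4.87 kb). Day 10 shares of all protein-coding genes were 26.9% above 300 kb, 17.6% at 100 to 300 kb and 8.66% at 30 to 100 kb. Under 10 kb the share was 1.61%, and length was not separated from function in this list. Several members were named by the study itself, so the list is not independent evidence. Among 19 SOX genes 2 had a day 10 peak (10.5%, 2.94 to 31.4, median length 4.79 kb). Sox5 (381 kb) had 2 peaks, both in introns, and Sox13 (41.9 kb) had 1 over coding exons up to exon 12 of 14. Both genes are longer than the median of their list. Among 44 collagen genes 5 had a day 10 peak (11.4%, 4.95 to 24; median length 114 kb, where 17.6% of all genes of 100 to 300 kb had one), and Col22a1 had 2 peaks, Emid2, Col24a1, Col27a1 and Col6a6 1 each.

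Matrix genes as a whole did not stand above the background. Of 76 proteoglycans and glycoproteins 4 had a day 10 peak (5.26%), namely Fn1 (fibronectin, exon 26 of 46), Emilin2, Fbn2 and Spp1 (osteopontin, exon 6 of 7), and 1 had a day 0 peak, Fbn1 (fibrillin), in an intron with 2.01 CpG per 100 bp. Of 84 matrix proteases and inhibitors Timp2, Mmp21 and Adamts2 had a day 10 peak (3.57%), and Timp2 was also the single member with a day 0 peak.

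Signalling genes were above the background at day 10 in part, with gene length not separated from function. WNT signalling had 12 of 79 members with a day 10 peak (15.2%, 8.91 to 24.7) and none at day 0 (interval up to 4.64%). Tcf7l2, a nuclear effector of beta-catenin, had 5 day 10 peaks, 2 over coding exons (4 and 12 of 13) and 3 in introns, and Lef1, its relative, had 2. Wnt7b, Tcf7l1 and Fzd6 had 1 each. FGF and MAP kinase pathways had 14 of 119 (11.8%, 7.14 to 18.8), led by Map2k6 with 5 peaks and Map3k4 and Map3k1 with 3 each. Insulin, IGF and PI3K signalling had 6 of 51 (11.8%, 5.51 to 23.4), with both peaks of Igf1r, the IGF receptor, over coding exons (6 and 13 of 21) and both of Pik3r1 as well. TGF-beta and BMP signalling had 6 of 74 (8.11%, 3.77 to 16.6), among them Tgfbr2 over exon 4 of 7, and its day 0 member was Chrdl1, a BMP antagonist, in an intron. Hedgehog, PTHrP and Notch pathways had 3 of 45 (6.67%), namely Maml3, Disp1 and Jag1.

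Ion channels, motor proteins and cadherins also had intervals above the background of all protein-coding genes, without regard to gene length. Potassium and calcium channels had 21 of 147 at day 10 (14.3%, 9.54 to 20.9), with 3 peaks each at Itpr1, all over coding exons, and Cacna1c, all intronic. At day 0 this group had Trpm8, the cold receptor, with a peak upstream. Myosins, dyneins and kinesins had 12 of 91 (13.2%), with 4 peaks each at Kif21a and Kif13a. Cadherins and protocadherins had 13 of 113 (11.5%; 32 members when genes were assigned by overlap), and phosphatases 13 of 115 (11.3%). Median gene lengths were 45.3 kb for the channels, 73.4 kb for the motor proteins, 86.1 kb for the cadherins and 41.5 kb for the phosphatases. Of all genes of 30 to 100 kb, 8.66% had a day 10 peak. That share lay within the intervals of motor proteins (7.71 to 21.6), cadherins (6.85 to 18.7) and phosphatases (6.73 to 18.4). It lay below the interval of the channels. Integrins and laminins had 5 of 42 (11.9%, 5.19 to 25) at day 10 and Itgb4 at day 0.

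Among regulators of transcription and chromatin, the day 10 shares of the lists below ranged from 0% to 12.3%. Histone modifiers and remodellers had 19 of 154 (12.3%, 8.04 to 18.5), with 3 peaks at Arid5b and 2 each at Arid1b, Mll2 and Smarca2, and Cbx5, which encodes a heterochromatin protein, was the day 0 member. Homeobox genes had 13 of 130 (10%, 5.94 to 16.4), with 3 peaks each at Cux2, Irx1 and Zfhx3. T-box and forkhead factors had 7 of 59 (11.9%, 5.87 to 22.5), and the Foxd3 peak, upstream of the start, had 5.88 CpG per 100 bp. Of 30 genes of DNA methylation and demethylation 3 had a day 10 peak (10%, 3.46 to 25.6), namely Zbtb38, a reader of methylated DNA, with 3 peaks, Mbd2, another reader, with 2 and Tet1 with 1 in an intron. Of 42 imprinted genes 5 had one (11.9%, 5.19 to 25), namely Sgce, Zim1, Klf14, Grb10 and Peg10, and the Klf14 peak held its start. Nuclear receptors were the list with the highest day 0 share, 2 of 45 (4.44%, 1.23 to 14.8), from intronic peaks at the lipid sensors Ppara and Ppard, and Rora, Nr2c1 and Thra had a day 10 peak. Nuclear factor I and TEAD genes had none among 16 members in either list (interval up to 19.4%).

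The receptor families of smell and immunity had few members with a day 10 peak. Olfactory receptors had 4 of 1105 (0.362%, 0.141 to 0.927; median length 0.948 kb), vomeronasal receptors 0 of 350 (interval up to 1.09%) and immune receptors of the immunoglobulin and lectin types 4 of 184 (2.17%, 0.849 to 5.46). Vomeronasal receptors had 2 members with a day 0 peak, Vmn1r5 and Vmn2r99, and immune receptors had Clec1a. These families hold near-identical copies, so reads and symbols could be split between them. Zfp zinc finger genes had 27 of 394 at day 10 (6.85%) and 3 at day 0 (Gm13152, Zfp369 and Zfp791), close to the background. Solute carriers had 25 of 337 (7.42%, 5.08 to 10.7) at day 10 and 4 at day 0, among them Slc22a29, Slc26a11 and Slc6a2. Of the remaining lists, axon guidance had 7 of 74 (9.46%), glutamate and GABA receptors 5 of 49 (10.2%), germline genes 1 of 49 (2.04%, Tdrd6) and cytosolic ribosomal proteins 1 of 83 (1.2%, Rps10) at day 10, and none of these had a day 0 member.

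**Figure D5:**
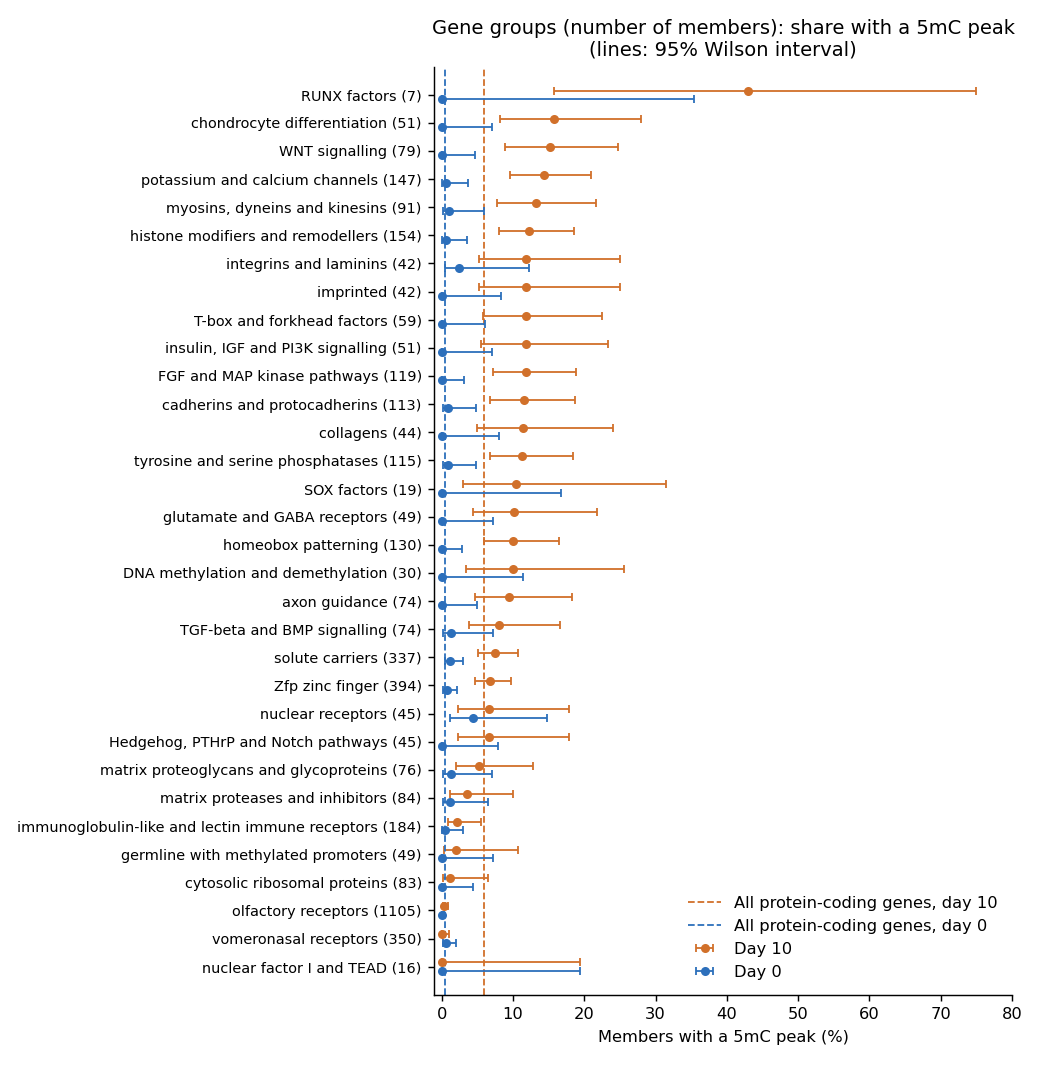
Share of members with a 5mC peak (x axis, %) in the gene lists described (y axis, number of members in brackets) at day 0 (blue) and day 10 (orange), with lines for 95% Wilson intervals and dashed lines at the shares of all protein-coding genes (0.496% and 5.91%). RUNX factors have the highest day 10 share (42.9%, 7 members, median length 103 kb). Genes of chondrocyte differentiation stand at 15.7%, and the chemosensory receptor lists lie at the bottom (0.362% or less).

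Of 16 genes taken from the study's text, Sox5, Runx2, Cst6 and Tet1 had a day 10 peak and none had a day 0 peak. Of all protein-coding genes, 5.91% had a peak at day 10 and 0.496% at day 0. By length, the day 10 share was 26.9% above 300 kb, where Sox5 and Runx2 lie. It was 8.66% at 30 to 100 kb (Tet1) and 1.61% under 10 kb (Cst6). Sox5, the partner of SOX9 in cartilage, had intronic peaks of 603 and 832 bp with 2.49 and 1.56 CpG per 100 bp, at 26.7% and 13.3% of the gene's length. The Runx2 peak had 1.7 CpG per 100 bp and lay at 44.8% of its length, and the Tet1 peak had 1.17 and lay at 64%. The peak at Cst6, a protease inhibitor, lay 1436 bp upstream of the start with 2.05. By distance, the nearest day 10 peak was 54 kb from Col2a1, the cartilage collagen, 132 kb from Acan, which encodes aggrecan, and 319 kb from Sox9, and the nearest day 0 peaks were 2763 kb, 27816 kb and 519 kb away. For Col10a1, the collagen of hypertrophic cartilage, the day 10 peak was 5363 kb and the day 0 peak 3458 kb away. The day 10 list is the longer one, so these distances cannot be told apart from list size.

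Genes of both lists were looked up in the 5hmC lists, which were each made from 2 merged samples at a threshold of 10-fold. Of the genes with 5mC at day 0 alone, 12 of 105 had a day 5 5hmC peak (11.4%, 6.66 to 18.9), and of those at day 10 alone 204 of 1330 did (15.3%, 13.5 to 17.4), a difference of 3.91 points that did not pass the threshold (Fisher's exact test, adjusted p = 0.646). In the day 10 5hmC list the shares were 22.9% and 24.5%, a difference of 1.65 points (Fisher's exact test, adjusted p = 0.813). With genes assigned by overlap instead of by symbol the day 10 5hmC difference was 10.8 points (adjusted p = 0.05 by the same exact test), and among genes of 31.9 to 145 kb the day 5 difference was 9.07 points (adjusted p = 0.187). All protein-coding genes had 4.63% and 7.42%, and the 5mC genes are longer, so that length and 5mC cannot be told apart in this gap. Above 300 kb, 53.3% of the day 0 and 60.9% of the day 10 genes had a 5hmC peak of either day. At 100 to 300 kb 42.1% and 51.6% did, and at 30 to 100 kb 16.2% and 25.9%. At 10 to 30 kb the shares were 11.8% (of 17 day 0 genes) and 9.26%. Under 10 kb they were 0% (of 2 day 0 genes) and 5.26%. Among the 18 genes in both 5mC lists, 5 (27.8%) had a 5hmC peak of either day, namely Ano2, Erc2, Hlcs, Lrrc8b and Wasf3. Of genes in the day 0 list alone 29.5% did, and of those in the day 10 list alone 29.8%. The shared genes were longer (median 254 kb), and this comparison was not tested.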

How the data were processed

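The 2 samples compared were ATDC5 genomic DNA enriched for 5mC at day 0 and at day 10. Per the study's methods, the authors aligned trimmed single-end reads to GRCm38 with BWA, called peaks with MACS 1.4.2 at default settings and annotated them with HOMER. The deposited lists give each peak's position and, where the authors assigned one, a symbol with its accession, and per the file headers they were filtered at 3-fold enrichment (5mC) or at 10-fold enrichment in 2 merged samples (5hmC). They hold no counts, signal or p-values, so the depth is unknown. The day 0 input sample was not analysed here.

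Symbols were taken as deposited and matched to RefSeq genes of GRCm38.p6 by accession (1637 of 1665 day 10 and 119 of 124 day 0 peaks), then by symbol or unique synonym, and 3 day 10 peaks were not matched. Curated transcripts gave positions, with an overlap of 1 bp, and soft-masked bases of the genome counted as repeat. RefSeq was used since the lists carry RefSeq accessions. Shares were compared with two-sided Fisher's exact tests (scipy 1.17.1), adjusted by Benjamini-Hochberg over the 7 positions or the 2 5hmC lists, with a threshold of 0.05 and 95% Wilson intervals. Scripts were tested on simulated data. Named genes were those in both lists, the 10 per list with the most peaks (ties by covered bases), the 5 peaks per list nearest a start (ties by width), up to 5 members per gene list and 16 genes taken from the study's text. The members and lists were chosen with earlier results of these data known. A few items are not reported here.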

Additional observations from a re-analysis of the deposited data

How the results depend on the processing

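Of 53 comparisons under other settings, 43 kept their direction and their side of the threshold, or stayed within 1.5 times for counts. The share of peaks with a symbol, genes with 2 or more peaks, coding exons and introns kept both throughout. With peaks of at least the median width, the day 0 genes numbered 59 and the day 10 genes 730, as fewer peaks were left. By midpoint, the upstream difference (day 10 minus day 0) was -6.29 points (adjusted p = 0.017, Fisher's exact test) and the 5′ UTR difference 0.603 points, past the threshold no longer. With 2000 bp upstream sequence, the upstream difference turned to 1.55 points and the difference beyond the gene was -6.69 points (adjusted p = 0.0206, same exact test), since peaks moved from the one class to the other. With the longest transcript alone the 5′ UTR difference was 2.96 points. Among peaks with under 50% repeat, chosen after seeing the data, it was 4.06 points, and the differences in 3′ UTR exons (-0.25 points) and beyond the gene (0.938 points) turned sign without passing the threshold. When genes were assigned by overlap with the gene or 5000 bp upstream, 21 genes were in both lists and the day 10 5hmC difference was 10.8 points (adjusted p = 0.05, Fisher's exact test). Of 66 counts in gene lists, 4 moved by over 1.5 times, the widest being cadherins and protocadherins at day 10 (32). The causes were otherwise not tested.

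No paired analysis was possible because each 5mC group had 1 sample, and the 5hmC samples that carry replicate numbers were deposited as 1 list for each day. No replicate was left out for the same reason, and no filter on score or fold was run, as the lists give neither. With unknown depth and control, a gene without a peak is not shown to be unmethylated.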
